A study of Mus musculus with 19 samples.

Results

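The genes described here are 8 mouse genes that mark reserve or regenerative stem cells of the intestine, out of 55487 genes listed in the files. They were chosen by name: Bmi1, Hopx, Lrig1, Mex3a and Tert mark slow-cycling or reserve stem cells, and Clu, Ly6a and Anxa1 mark the regenerative, fetal-like state of a damaged epithelium. Of the 8, 7 had enough counts to be tested, and Anxa1 did not. RNA was sequenced from crypts of the proximal part of the small intestine, 1 library per mouse, in 19 mice. The mice were with (NT+/+) or without (NT-/-) the gene for neurotensin, a hormone that the gut releases when it absorbs fat. Of the NT+/+ mice, 5 were fed ad libitum and 5 had been fasted for 48 hours with water only, and of the NT-/- mice, 4 were fed and 5 fasted in the same way. All mice carry the strain label C57BL/6. The methods give both sexes and an age of 10 to 16 weeks for the fasting studies, and ad libitum-fed sex- and age-matched littermates as controls. The study describes its NT+/+ and NT-/- mice as carrying an Lgr5-EGFP reporter allele, its methods also list lines without the reporter, and the labels of these libraries do not mention it.

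The lining of the small intestine is renewed from crypts, whose base holds fast-cycling Lgr5+ stem cells between Paneth cells. Reserve stem cells are a smaller, slower-cycling population defined by reporter alleles at genes such as Bmi1, Hopx, Lrig1, Mex3a and Tert, and they can restore the Lgr5+ pool when it is lost. The transcripts of these genes are not confined to such cells, and several are also found in Lgr5+ cells. After irradiation, infection or injury the epithelium instead turns on genes of the fetal gut through the Hippo effector YAP, and Clu, Ly6a (which encodes the surface protein Sca-1) and Anxa1 mark the cells that do so. Fasting and refeeding change the number and activity of intestinal stem cells, and the question here was how the transcripts of both kinds of marker stood in fed and fasted crypts with and without neurotensin.

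The regions upstream of 4 of the genes described below are printed. Tert was called lower in fasted NT-/- crypts, a call that several other settings lost. For Bmi1 the fed and fasted NT+/+ mice did not overlap, as for 6.97% of all tested genes, but the difference was not called. The levels of Hopx and Lrig1 varied together from mouse to mouse within groups. Each printed region is the 250 bases before a start site listed by RefSeq in GRCm38.p6, read 5′ to 3′ on the strand of the gene. The letters CACGTG, the E-box that Myc and related factors recognise, are in capitals. RefSeq windows were matched for 6 of the 8 genes. Clu and Ly6a had no entry, so no region is printed for Clu, the gene with the clearest difference with fasting below.
Tert (chr13:73626661-73626910, plus strand): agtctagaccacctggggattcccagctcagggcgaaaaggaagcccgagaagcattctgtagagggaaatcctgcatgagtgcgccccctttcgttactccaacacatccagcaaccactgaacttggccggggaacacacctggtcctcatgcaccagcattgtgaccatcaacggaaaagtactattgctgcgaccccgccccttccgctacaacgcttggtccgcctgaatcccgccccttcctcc
Bmi1 (chr2:18676768-18677017, plus strand): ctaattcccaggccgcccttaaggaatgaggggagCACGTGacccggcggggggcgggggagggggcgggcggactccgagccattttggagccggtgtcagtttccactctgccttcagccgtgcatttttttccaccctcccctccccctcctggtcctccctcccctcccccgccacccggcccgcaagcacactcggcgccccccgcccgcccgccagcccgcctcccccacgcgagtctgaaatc
Hopx (chr5:77115124-77115373, minus strand): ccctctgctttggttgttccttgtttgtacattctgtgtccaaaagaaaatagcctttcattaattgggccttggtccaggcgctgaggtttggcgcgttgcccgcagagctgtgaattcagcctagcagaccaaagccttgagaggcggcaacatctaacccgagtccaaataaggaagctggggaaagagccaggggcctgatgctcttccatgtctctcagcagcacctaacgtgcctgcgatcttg
Lrig1 (chr6:94700146-94700395, minus strand): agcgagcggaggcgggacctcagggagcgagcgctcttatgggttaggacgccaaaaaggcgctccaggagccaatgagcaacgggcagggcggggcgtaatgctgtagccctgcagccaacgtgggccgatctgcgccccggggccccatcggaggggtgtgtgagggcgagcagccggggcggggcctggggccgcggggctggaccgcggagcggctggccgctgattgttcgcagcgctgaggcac
Of these 4, only the Bmi1 window held the letters, from position -215 counted from the start site. A window before another Hopx start site, chr5:77095268-77095517, held them once, from position -86. Of all 32851 RefSeq windows of 250 bases, 6.02% held CACGTG, which reads the same on both strands.

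In GRCm38 the 8 genes lie on 8 chromosomes: Bmi1 (ENSMUSG00000026739) at chr2:18677018-18686629, Hopx (ENSMUSG00000059325) at chr5:77086988-77115121, Lrig1 (ENSMUSG00000030029) at chr6:94604529-94700158, Mex3a (ENSMUSG00000074480) at chr3:88532395-88541396, Tert (ENSMUSG00000021611) at chr13:73626911-73649843, Clu (ENSMUSG00000022037) at chr14:65968483-65981547, Ly6a (ENSMUSG00000075602) at chr15:74994877-74998031 and Anxa1 (ENSMUSG00000024659) at chr19:20373428-20390944. Hopx overlaps the antisense gene Hopxos, Lrig1 the opposite-strand gene Slc25a26, Mex3a the opposite-strand microRNA Mir1905, and Anxa1 the opposite-strand gene 1500015L24Rik. Whether the counting used strand is not stated, so reads in the shared stretches cannot be assigned with certainty. In all 19 mice the expected counts of Hopx and Lrig1 were not whole numbers, meaning that reads were divided between these genes and others, whereas those of the other 6 genes were whole in every mouse.

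Total counts ranged from 9059418 to 35068669 per mouse (median, 18541770), and 2 fasted NT-/- mice, replicates 2 and 4, were the shallowest. Replicate 1 of the fed NT+/+ group stood apart from its group over the tested genes. Its counts differed from those of the other fed NT+/+ mice by a chi-square per degree of freedom of 150 to 220. Among those other mice the values were 15.3 to 40.4. Nts, the deleted gene, lay between 4.98 and 8.59 CPM (the read count of a gene scaled to a library of fixed size) in NT+/+ mice and between 0.144 and 0.793 CPM in NT-/- mice. Replicate 5 of the fasted NT+/+ group is NT+/+ by its title and NT-/- by its genotype label. It had 5.43 CPM of Nts, within the range of the other NT+/+ mice, and was kept with its title. Epithelial markers and markers of Lgr5+ crypt base columnar cells were present in every mouse, with summed levels of 5279 to 7134 and 972 to 2766 CPM. In whole crypts, fewer cells of a type and less RNA per cell cannot be told apart.

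The 8 genes spanned a wide range of levels. Per kilobase of effective transcript length, the order in ad libitum-fed NT+/+ crypts was Hopx (41.1 ± 5.93 CPM per kb; SD, n = 5), Lrig1 (30.8 ± 3.81), Bmi1 (9.88 ± 0.406), Tert (2.57 ± 0.211), Ly6a (2.05 ± 1.70), Mex3a (1.35 ± 0.179), Clu (1.07 ± 0.364) and Anxa1 (0.135 ± 0.0936). Hopx, Lrig1, Bmi1 and Tert occupied separate ranges in that group, while Tert overlapped Ly6a, Ly6a overlapped Mex3a, and Mex3a overlapped Clu. Fasting moved Clu from the seventh place to the fourth in both genotypes, at 5.01 ± 2.41 CPM per kb in NT+/+ and 8.17 ± 2.76 in NT-/- mice (SD, n = 5 each), where its range overlapped that of Bmi1 and lay above that of Tert.

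**Figure D1:**
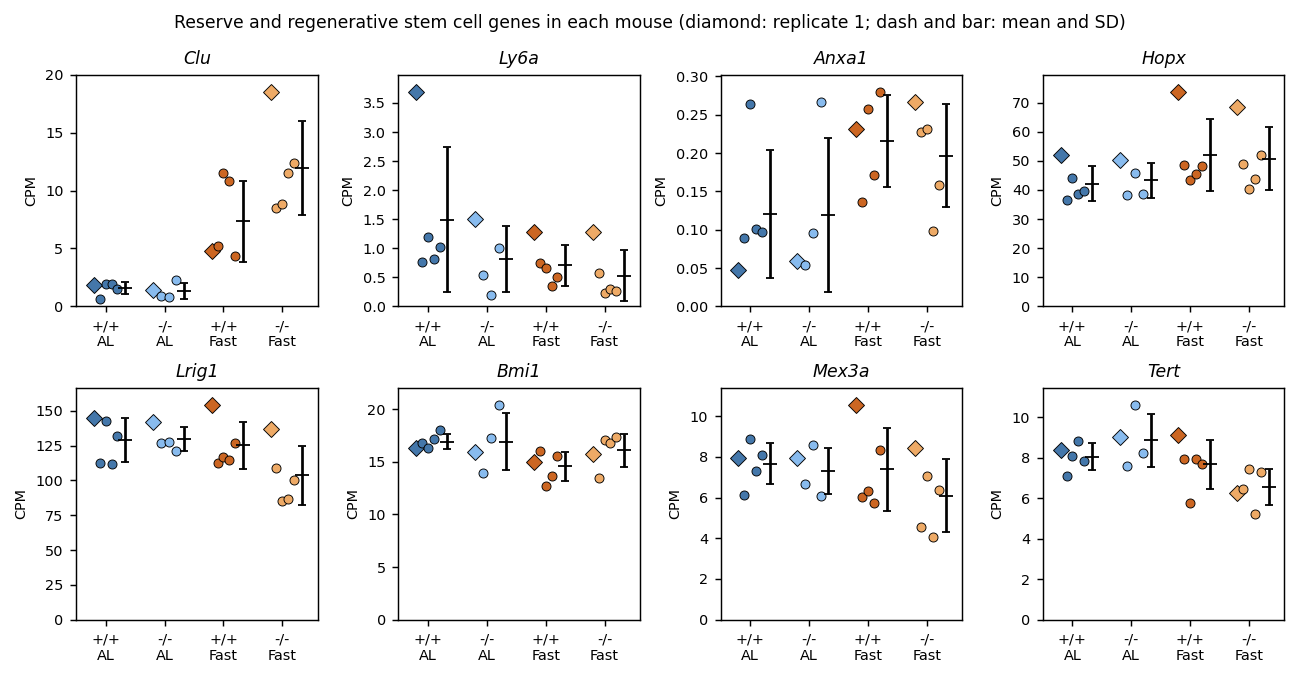
Levels of the 8 genes in each of the 19 mice, in CPM on a linear axis from 0, by genotype (NT+/+ or NT-/-) and diet (AL, ad libitum; Fast, fasted 48 hours). Each point is a mouse, diamonds are the mice with replicate number 1, and the dash and bar give the mean and SD of the group. All 10 fasted mice lie above all 9 fed mice for Clu, and the diamond is the highest point of all 4 groups for Hopx, Lrig1 and Ly6a.

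Clu encodes the secreted chaperone clusterin and marks the revival stem cells of the injured gut. In the fit without a replicate block it was the 1 gene of the 8 called higher with fasting in both genotypes. With the replicate number of the file names as a block, Hopx was also called higher in both. In ad libitum-fed NT+/+ mice Clu stood at 1.82, 0.667, 1.92, 1.93 and 1.498 CPM, and in fasted NT+/+ mice at 4.75, 5.25, 11.5, 10.8 and 4.31 CPM. In NT-/- mice it stood at 1.45, 0.866, 0.819 and 2.29 CPM when fed and at 18.5, 8.51, 8.85, 11.5 and 12.4 CPM when fasted. The highest fed mouse (2.29 CPM) lay below the lowest fasted mouse (4.31 CPM), which held for 3.86% of all tested genes, and 8.48% rose in both genotypes. Fasting raised Clu by 2.24 on the log2 scale in NT+/+ crypts (SE, 0.36; 95% interval, 1.49 to 2.98; adjusted p = 0.000189), a 4.72-fold difference, and by 3.14 in NT-/- crypts (SE, 0.39; 95% interval, 2.32 to 3.96; adjusted p = 1.29e-05), an 8.83-fold difference. By size of the log2 fold change it ranked 74th of 17875 tested genes in NT+/+ and 37th in NT-/- mice. Both calls held when any 1 mouse was left out, with log2 fold changes of 2.01 to 2.38 in NT+/+ and 2.92 to 3.48 in NT-/- mice.

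The fasted NT-/- mice had more Clu than the fasted NT+/+ mice on average, but the ranges overlapped and the difference was not called. It was 0.71 on the log2 scale (SE, 0.32; 95% interval, 0.04 to 1.38; unadjusted p = 0.0394; adjusted p = 0.509). With the mouse of disagreeing labels placed in the fasted NT-/- group, against its Nts level, the difference was 0.40 (unadjusted p = 0.275; adjusted p = 0.915). Without the mice numbered 1 it was 0.38 (unadjusted p = 0.286; adjusted p = 0.811). Fed NT-/- and NT+/+ mice differed by -0.19 (95% interval, -1.03 to 0.64). The difference between the 2 effects of fasting was 0.90 (95% interval, -0.17 to 1.98; unadjusted p = 0.0947; adjusted p = 1), and 0.60 and 0.54 with the same changes.

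Markers of absorptive enterocytes moved with Clu. Of 8 such markers, 6 rose in NT+/+ and 8 in NT-/- mice, where 11.2% and 12.5% of all tested genes rose. Among those that rose were the fatty acid-binding protein genes Fabp1 (log2 fold change, 2.09 and 2.05) and Fabp2 (1.43 and 1.80). The summed level of the 8 markers was 3751 to 7829 CPM in fed and 7834 to 16513 CPM in fasted NT+/+ mice. In NT-/- mice it was 5835 to 8624 CPM when fed and 14569 to 19822 CPM when fasted, and none of the 8 was at 0. Proliferation markers, such as Mki67 and Top2a, fell, 4 of 6 in NT+/+ and 6 of 6 in NT-/- mice, where 10.4% and 12.6% of all tested genes fell. Among fasted NT+/+ mice, replicates 3 and 4 had the most Clu (11.5 and 10.8 CPM) and the highest enterocyte sums (15424 and 16513 CPM), and replicates 1 and 5 the least Clu (4.75 and 4.31 CPM) and the lowest sums (7834 and 9914 CPM). In the fasted NT-/- group replicate 1 had the most Clu (18.5 CPM) and the lowest sum (14569 CPM). The part of these markers in the difference of Clu was not tested.

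**Figure D2:**
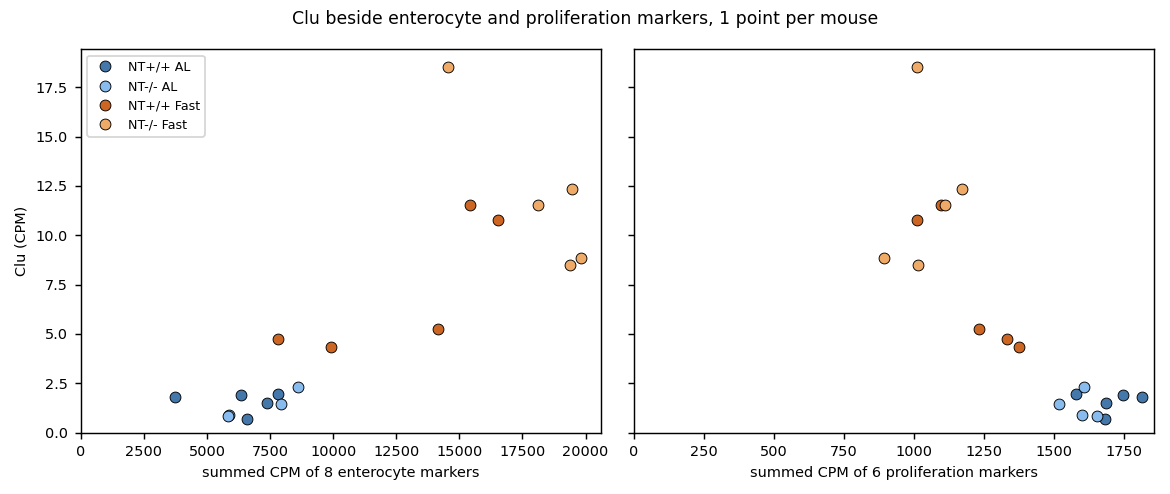
Clu (CPM, vertical axis) against the summed CPM of 8 enterocyte markers (left) and of 6 proliferation markers (right), with linear axes from 0 and 1 point per mouse, coloured by group. The fasted mice lie at higher Clu, mostly at higher enterocyte sums and all at lower proliferation sums than the fed mice (892 to 1375 against 1518 to 1814 CPM).

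No rise with fasting was called for Ly6a or detectable for Anxa1. Ly6a, which is inducible by interferon and is also expressed by T cells and endothelium, was low, with 3 to 77 counts per mouse. It stood at 3.69, 0.756, 1.19, 0.812 and 1.01 CPM in fed and at 1.27, 0.750, 0.669, 0.343 and 0.504 CPM in fasted NT+/+ mice. In NT-/- mice it stood at 1.504, 0.541, 0.193 and 1.01 CPM when fed and at 1.28, 0.567, 0.231, 0.296 and 0.264 CPM when fasted. Fed and fasted ranges overlapped in both genotypes. T cell markers summed to 91.9 to 338 CPM and endothelial markers to 2.95 to 5.66 CPM, and their part in the level of Ly6a was not tested. The log2 fold change with fasting was -1.08 in NT+/+ (95% interval, -2.23 to 0.08; adjusted p = 0.177) and -0.62 in NT-/- mice (95% interval, -1.93 to 0.68; adjusted p = 0.516). The mouse at 3.69 CPM, replicate 1 of the fed NT+/+ group, is the one whose library stood apart over the tested genes. Without it the value in NT+/+ was -0.40, and the adjusted p 0.64. In NT-/- mice the value was -0.09 without replicate 1 of the fed group (adjusted p = 0.950) and -1.39 without replicate 1 of the fasted group (adjusted p = 0.144). With the replicate number of the file names as a block the value in NT+/+ was -0.96 and was called (adjusted p = 0.0237), and with that of the titles it was -0.94 and was not (adjusted p = 0.0515).

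Anxa1, which encodes the membrane-binding protein annexin A1, had 1 to 5 counts per mouse and 55 over all mice. Mean levels were 0.120 ± 0.0834 CPM in fed and 0.215 ± 0.0599 CPM in fasted NT+/+ mice (SD, n = 5 each), and 0.119 ± 0.10005 CPM (SD, n = 4) and 0.196 ± 0.0673 CPM (SD, n = 5) in NT-/- mice. By exact two-sided permutation tests over mice, the fasting difference had p = 0.0714 in NT+/+ and p = 0.190 in NT-/- mice (adjusted over 4 comparisons, 0.286 and 0.381), with smallest possible values of 0.00794 and 0.0159. A difference in Anxa1 was not detectable at this depth.

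Beside these 3 markers stand 22 further genes of the fetal-like, YAP-linked programme, of which 13 were tested. Fasting raised 2 and lowered 1 in NT+/+ crypts, and raised 2 and lowered 4 in NT-/- crypts. The shares called among all tested genes were 21.6% in NT+/+ (11.2% higher, 10.4% lower) and 25.2% in NT-/- mice (12.5% higher, 12.6% lower). S100a6, a calcium-binding protein gene, rose by 0.76 and 0.75 on the log2 scale in NT+/+ and NT-/- mice. Anxa5, another annexin gene, fell by 0.81 and 1.12. Anxa3, Krt7 and Cd55 fell in NT-/- mice, with log2 fold changes of -0.94, -0.79 and -1.07. The median of the 13 was -0.08 in NT+/+ and 0.02 in NT-/- mice, against -0.01 and -0.02 over all tested genes. Several defining members were too low to test, among them the YAP targets Ccn2 (at most 0.0537 CPM on average in any group) and Ankrd1.

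Genes of the TGF-beta and Hippo pathways, which act upstream of the revival state, changed in both directions. Of 18 tested, 5 rose and 2 fell in NT+/+ mice, and 5 rose and 3 fell in NT-/- mice, where 11.2% of all tested genes rose and 10.4% fell in NT+/+ mice and 12.5% rose and 12.6% fell in NT-/- mice. The ligand Tgfb1 rose by 0.73 and 0.68 on the log2 scale, and the signal transducers Smad2 and Smad4 rose by 0.18 to 0.29 in the 2 genotypes. The YAP partner Tead1 fell by 0.37 and 0.40 and the kinase gene Stk3 by 0.44 and 0.52. Of 16 interferon-inducible genes, 4 fell in NT+/+ mice (among them Irf1, Iigp1 and Zbp1) and 1 fell in NT-/- mice (Zbp1, by 1.17). Median log2 fold changes of these 16 were -0.63 in NT+/+ and -0.05 in NT-/- mice. A test of whether fasting acted differently in the genotypes called no gene of that list. Of 11 further genes of the Ly6 cluster found in the files, 2 were tested, and neither was called by edgeR in either genotype (Ly6e, log2 fold change -0.50 and -0.52; Ly6d, -0.78 and -0.58).

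**Figure D3:**
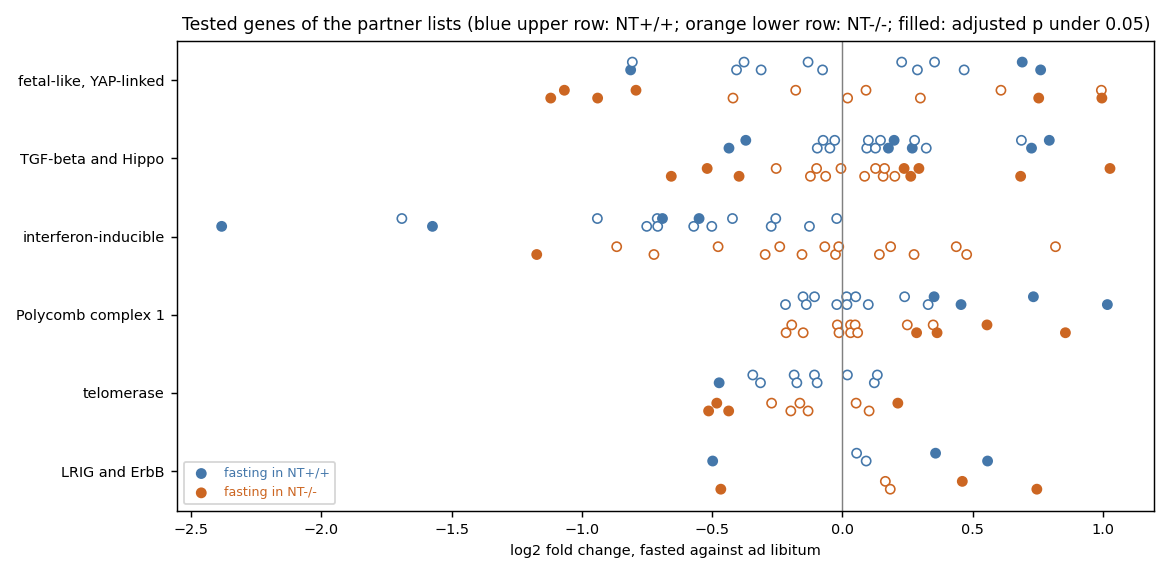
Log2 fold changes with fasting of the tested genes in 6 lists of pathway partners, in NT+/+ (blue, upper row of each list) and NT-/- mice (orange, lower row), 1 point per gene, filled where the adjusted p was under 0.05. Called genes lie on both sides of 0 for the fetal-like and the TGF-beta and Hippo lists, and on 1 side for the interferon-inducible and Polycomb lists.

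Among the reserve stem cell genes, Tert, the reverse transcriptase subunit of telomerase, was the 1 that was called in the fit without a replicate block, in NT-/- mice. It stood at 9.03, 7.58, 10.6 and 8.20 CPM in fed and at 6.25, 6.47, 7.46, 5.23 and 7.29 CPM in fasted NT-/- mice. The highest fasted mouse lay just below the lowest fed mouse, and 10.8% of all tested genes had fasted NT-/- mice all below fed ones. Fasting lowered Tert by 0.43 on the log2 scale (SE, 0.14; 95% interval, -0.72 to -0.14; adjusted p = 0.0295). The call was lost without replicate 1 (adjusted p = 0.0633) or replicate 3 (0.124) of the fed NT-/- mice, or without replicate 1 (0.0525) or replicate 4 (0.0713) of the fasted NT-/- mice. It was also lost without the 2 shallowest mice, replicates 2 and 4 of the fasted NT-/- group (adjusted p = 0.133), without the mice numbered 1 (0.116) and with no filter on low counts (0.0565). In NT+/+ mice Tert lay between 7.07 and 8.83 CPM when fed and between 5.76 and 9.10 CPM when fasted, and its log2 fold change was -0.07 (95% interval, -0.34 to 0.21). The 2 effects of fasting differed by -0.36 (95% interval, -0.77 to 0.04; adjusted p = 1), so the difference between genotypes was not called.

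Other components of telomerase were set beside Tert. Of 10 tested, 1 fell in NT+/+ mice, and 3 fell and 1 rose in NT-/- mice. Over all tested genes 10.4% fell and 11.2% rose in NT+/+ mice, and 12.6% fell and 12.5% rose in NT-/- mice. Ruvbl1, an ATPase gene of telomerase assembly, fell in both genotypes (by 0.47 in NT+/+ and 0.48 in NT-/- mice on the log2 scale). Its partner Ruvbl2 fell by 0.51 in NT-/- mice and Gar1, which encodes a protein of the telomerase ribonucleoprotein, fell by 0.44, while Parn, an exonuclease gene of telomerase RNA maturation, rose by 0.21. The RNA subunit Terc was at 0 in every mouse. In the same fasted NT-/- mice 6 of 6 proliferation markers fell, where 12.6% of all tested genes did. The summed level of the 6 was 892 to 1173 CPM against 1518 to 1653 CPM in fed mice, and their part in the difference of Tert was not tested.

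Lrig1 encodes a transmembrane inhibitor of ErbB receptors and marks a stem cell population that is partly quiescent. It stood at 142, 127, 128 and 121 CPM in fed and at 137, 109, 85.5, 86.4 and 100 CPM in fasted NT-/- mice. Fasted NT-/- mice lay lower except for replicate 1, and the groups overlapped. The log2 fold change was -0.32 (SE, 0.13; 95% interval, -0.59 to -0.06; adjusted p = 0.0694). It was called with the replicate number as a block, by the titles (-0.34; adjusted p = 0.00838) or the file names (-0.32; adjusted p = 0.0124), without replicate 1 of the fasted NT-/- group (-0.45; adjusted p = 0.00682), without the mice numbered 1 (adjusted p = 0.0127), with the stricter filter of 10 counts in every mouse (0.0464) and with upper quartile normalization (0.0392). In NT+/+ mice Lrig1 lay between 112 and 145 CPM when fed and between 112 and 154 CPM when fasted (log2 fold change, -0.04; 95% interval, -0.29 to 0.21). Fasted NT-/- mice differed from fasted NT+/+ mice by -0.27 (95% interval, -0.52 to -0.02; unadjusted p = 0.0351; adjusted p = 0.491).

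Of the Lrig family and the ErbB receptors, 5 were tested beside Lrig1. In each genotype 2 rose and 1 fell. The shares of all tested genes were 11.2% higher and 10.4% lower in NT+/+ mice, and 12.5% higher and 12.6% lower in NT-/- mice. Lrig3 rose with fasting by 0.56 on the log2 scale in NT+/+ and by 0.46 in NT-/- mice, and the receptor gene Erbb3 rose by 0.36 and 0.75. Egfr, the receptor for epidermal growth factor, fell by 0.50 and 0.47. Erbb3 stood at 507 ± 87.1 CPM in fed and 649 ± 61.2 CPM in fasted NT+/+ mice (SD, n = 5 each).

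Hopx encodes a small homeodomain protein that does not bind DNA itself. In fed mice it stood at 51.9, 36.7, 44.3, 38.5 and 39.7 CPM in the NT+/+ group and at 50.4, 38.3, 45.7 and 38.5 CPM in the NT-/- group. When fasted it stood at 73.7, 48.6, 43.6, 45.6 and 48.2 CPM in NT+/+ and at 68.3, 48.9, 40.5, 43.7 and 51.9 CPM in NT-/- mice. Replicate 1 was the highest in every group, and fed and fasted mice overlapped. The log2 fold change with fasting was 0.30 in NT+/+ (SE, 0.15; adjusted p = 0.169) and 0.23 in NT-/- mice (SE, 0.16; adjusted p = 0.33). Blocking on the replicate number gave 0.29 (SE, 0.08) in NT+/+ mice with the numbers of the titles and 0.28 (SE, 0.09) with those of the file names, and both were called (adjusted p = 0.0186 and 0.0191). The value in NT-/- mice with the file name numbers was 0.25 (SE, 0.09; adjusted p = 0.0485). With the numbers of the titles it was 0.22 (adjusted p = 0.0748) and was not called. The unblocked values rested partly on the mice numbered 1: without that of the fasted NT+/+ group the value in NT+/+ was 0.14 (adjusted p = 0.489), and without that of the fasted NT-/- group the value in NT-/- was 0.09 (adjusted p = 0.696).

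Bmi1 encodes a subunit of Polycomb repressive complex 1. In NT+/+ mice it stood at 16.3, 16.8, 16.3, 17.2 and 17.98 CPM when fed and at 14.9, 16.03, 12.7, 13.6 and 15.6 CPM when fasted. The fasted mice lay below the fed ones without overlap, as they did for 6.97% of tested genes, but the difference of -0.21 on the log2 scale was not called (95% interval, -0.42 to -0.01; adjusted p = 0.137). It lay, in NT-/- mice, between 14.0 and 20.4 CPM when fed and between 13.5 and 17.3 CPM when fasted (log2 fold change, -0.07; 95% interval, -0.29 to 0.16). Of 15 tested partners in Polycomb complex 1 and its target locus, 4 rose and none fell in each genotype by edgeR's test. Of all tested genes 11.2% rose and 10.4% fell in NT+/+ mice, and 12.5% rose and 12.6% fell in NT-/- mice. Cbx7, a chromobox subunit, rose by 1.02 and 0.86 on the log2 scale in NT+/+ and NT-/- mice, from 34.2 ± 2.48 to 69.2 ± 6.41 CPM in NT+/+ mice (SD, n = 5 each). Pcgf2, a close relative of Bmi1, rose by 0.73 and 0.56, and the catalytic subunit gene Rnf2 by 0.35 and 0.29. Cdkn2a, the cell-cycle inhibitor locus that Bmi1 represses, was too low to test (at most 0.0340 CPM on average in any group).

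Mex3a encodes an RNA-binding protein that marks slow-cycling Lgr5+ cells. It lay between 6.14 and 8.85 CPM in fed and between 5.71 and 10.5 CPM in fasted NT+/+ mice, and between 6.07 and 8.57 CPM in fed and between 4.04 and 8.44 CPM in fasted NT-/- mice. The groups overlapped. Its log2 fold change was -0.05 in NT+/+ (95% interval, -0.46 to 0.36) and -0.24 in NT-/- mice (95% interval, -0.68 to 0.19). Of 6 markers of Lgr5+ cells, none was called higher, and 10.4% and 12.6% of all tested genes fell in NT+/+ and NT-/- mice. Olfm4 fell in both genotypes, by 0.63 and 0.92 on the log2 scale, and Smoc2 fell in NT-/- mice by 0.49. Means of Lgr5 (27.6 and 33.8 CPM), Ascl2, Axin2 and Tnfrsf19 were higher in fasted than in fed NT+/+ mice. In NT-/- mice only that of Ascl2 was, and none of these was called. The median log2 fold change of the 6 was 0.21 in NT+/+ and -0.17 in NT-/- mice.

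Counted together, 1 of the 7 tested genes rose and none fell with fasting in NT+/+ mice by edgeR's test (2 had an unadjusted p under 0.05, and DESeq2 called 1). With the replicate number as a block 2 were called by the titles (Clu and Hopx) and 3 by the file names (also Ly6a, which was lower). Of all tested genes 11.2% rose, 10.4% fell and 34.1% had an unadjusted p under 0.05. For NT-/- mice the counts were 1 higher and 1 lower, where 12.5% of all tested genes rose and 12.6% fell, and the blocks called 3 by the titles (also Lrig1) and 4 by the file names (also Lrig1 and Hopx). The median log2 fold change of the 7 was -0.05 and -0.24, against -0.01 and -0.02 over all tested genes. When fasting was averaged over the genotypes, Clu rose by 2.69 (SE, 0.27; adjusted p = 2.13e-07) and Tert fell by 0.25 (SE, 0.10; adjusted p = 0.0462), where 39.4% of all tested genes were called, 19.2% higher and 20.2% lower. That call of Tert remained in 6 of 19 fits with 1 mouse left out, those without replicate 2 of the fed NT+/+, 2 or 4 of the fed NT-/-, 1 of the fasted NT+/+, or 3 or 5 of the fasted NT-/- group. For this average the block by the titles called 5 genes (Clu and Hopx higher, and Tert, Lrig1 and Ly6a lower). The block by the file names called 4, the same genes without Tert.

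**Figure D4:**
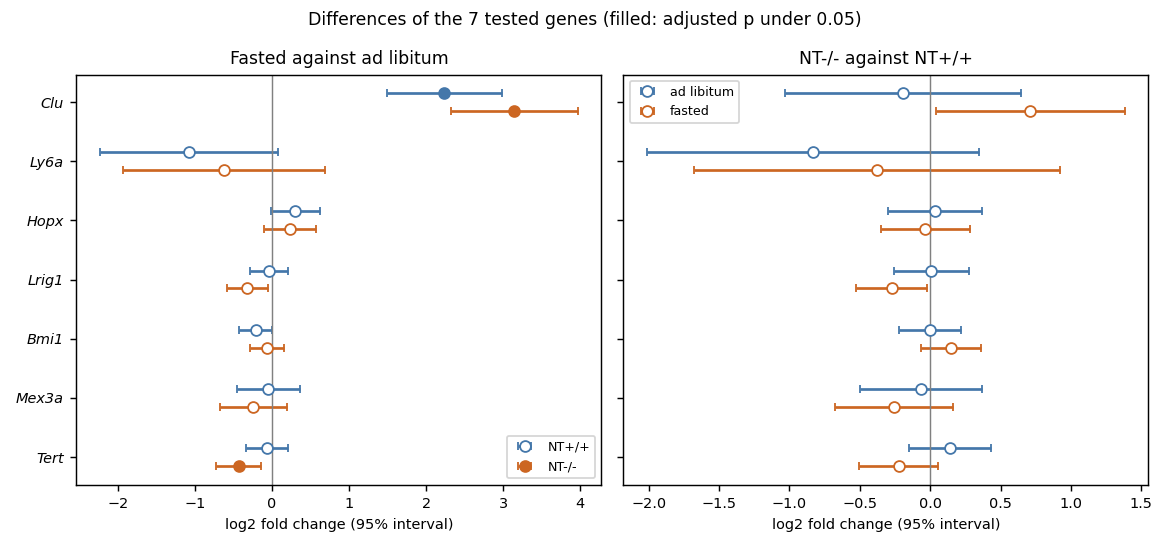
Log2 fold changes with 95% intervals of the 7 tested genes, for fasting in each genotype (left) and for NT-/- against NT+/+ in each diet (right). Filled points have an adjusted p under 0.05. Clu stands apart on the left at 2.24 and 3.14, Tert is filled in NT-/- mice at -0.43, and no point on the right is filled.

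NT-/- and NT+/+ mice were set against each other to ask whether neurotensin bears on these genes in crypts of the proximal small intestine. The study reported fewer proliferating cells and more goblet cells without neurotensin in distal but not in proximal crypts. Crypts of the distal end are not covered here. No difference was called in any of the 7 genes. In each diet 0 were called by edgeR's quasi-likelihood test and by DESeq2, with 0 at an unadjusted p under 0.05 in fed mice and 2, Lrig1 and Clu, in fasted mice. Over all tested genes 0.00559% were called by edgeR in each diet, which is 1 gene, Nts, while DESeq2 called 3 genes in fed and 77 in fasted mice, and 1.67% of fed and 9.14% of fasted comparisons had an unadjusted p under 0.05. Averaged over diets 0.0224% were called, and the log2 difference of NT-/- from NT+/+ mice was 0.00 for Hopx (95% interval, -0.23 to 0.23), 0.07 for Bmi1 (-0.08 to 0.23), -0.04 for Tert (-0.24 to 0.16) and -0.13 for Lrig1 (-0.31 to 0.05). The intervals were wider for Mex3a (-0.46 to 0.14), Clu (-0.28 to 0.80) and Ly6a (-1.48 to 0.27). All these intervals come from the fit without a block, which takes no account of the likeness of mice with the same replicate number. No difference between genotypes in the effect of fasting was called for any of the 7 by edgeR or DESeq2 (0 at an unadjusted p under 0.05, against 2.71% of tested genes, none of which was called). The 95% intervals of that difference for Clu (-0.17 to 1.98) and Tert (-0.77 to 0.04) leave room for one. By edgeR in the fit without a block, no partner gene in the lists above was called in any comparison of the genotypes. The partner genes were not examined in the other fits.

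Within the groups, the genes Hopx, Lrig1 and Ly6a shared a pattern from mouse to mouse. It was read within each group, so differences between diets or genotypes could not enter it. Replicate 1 was the highest mouse of all 4 groups for Hopx, Lrig1 and Ly6a, as it was for 4.19% of tested genes (749). The titles number the mice, and neither labels nor methods say what a number stands for. After subtraction of the group means of log2(CPM + 1), Hopx and Lrig1 correlated over the 19 mice (Pearson's r = 0.896, permutation p adjusted over 28 pairs = 0.00084; Spearman's rho = 0.835, adjusted p = 0.00392). The r was 0.806 without the 2 mice farthest from the median of Hopx, replicate 1 of both fasted groups, and 0.715 over the 15 mice with other numbers. Lrig1 and Ly6a had r = 0.692 (permutation, adjusted p = 0.00602), rho = 0.656 (adjusted p = 0.0587), and 0.255 over those 15 mice. Hopx and Ly6a had r = 0.706 (permutation, adjusted p = 0.0155), rho = 0.537 (adjusted p = 0.242), and -0.079 over those 15 mice, so this relation rested on the mice numbered 1. Mex3a had r = 0.695 with Hopx and 0.675 with Lrig1 (permutation, adjusted p = 0.0329 and 0.049), which dropped to 0.432 and 0.428 without the same 2 mice. The other 23 pairs, those with Clu, Tert, Bmi1 and Anxa1 among them, had adjusted p values of r above the threshold. The permutations moved mice freely within groups and took no account of the likeness of mice with the same number. Their p-values may therefore be too small.

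For each tested gene, the 3 genes whose deviations from the group means were most like its own were named by Pearson's r over the 19 mice, among about 13246 genes of sufficient level. For Hopx they were Prrc2b (r = 0.958), Pias4 (0.955) and Pygo2 (0.947), and for Lrig1 Tmed9 (0.938), Srpr (0.929) and H13 (0.920). Those most like Ly6a were Irgm1 (0.921), Fbxw11 (0.902) and Ankfy1 (0.890), and those most like Mex3a were Atoh8 (0.910), Ptch1 (0.900) and Celsr2 (0.887). Bmi1 was closest to Ccny (0.881), Neto2 (0.868) and Zhx1 (0.845). Clu, with Dnlz (0.809), Mrps12 (0.806) and Shpk (0.799), and Tert, with Scrn3 (0.761), Fbf1 (0.729) and Runx1t1 (0.724), had the lowest values. These are the highest of many correlations over libraries that share their depth and preparation, and they describe these mice only.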

How the data were processed

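Crypts were isolated with EDTA from the proximal part of the small intestine, and ribosomal RNA-depleted libraries were sequenced as single-end reads. The authors trimmed reads with Trimmomatic (version 0.39), used RSEM with the Ensembl transcripts of GRCm38 as reference, and deposited an expected count per gene. These counts are not normalized. The deposited files also give another quantity, the effective length of each gene in bases. The RSEM version and the strand setting are not given in the sources used here. Gene symbols and coordinates were taken from GENCODE M21 of GRCm38, an older release than the one the authors mapped to.

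Expected counts were rounded, and library sizes were scaled by TMM in edgeR (version 4.0.16, under R version 4.3.3). The 17875 genes kept by filterByExpr were fitted with 1 coefficient for each of the 4 groups (15 residual degrees of freedom) and tested with the quasi-likelihood test of edgeR, its p-values adjusted by Benjamini-Hochberg over all tested genes and a threshold of 0.05. DESeq2 (version 1.42.0) was an alternative. CPM use TMM library sizes, and log2 CPM for likeness used a prior count of 2. Anxa1 was below the filter and was compared by exact permutation of mice. Permutation tests of correlations used 1e+05 draws. In simulated data for fasting in NT+/+ mice (17478 genes), 94% of genes changed 2-fold upward and 83.3% of genes lowered to 0.5 times were recovered. The simulation gave every gene the same biological coefficient of variation, 18.9%, and no likeness between mice of the same number. Its rates do not describe genes of larger spread, such as Clu and Ly6a, or smaller changes. Other alternatives changed the filter, normalization, block, sex, grouping of 1 mouse and left-out mice. The fit with sex drops the mouse without a sex label. Counting error at the stated depth limits the low genes most.

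The genes and the partner and marker lists were chosen with earlier results of these data known. All 8 genes are named. List genes are named where they were called in a fasting comparison or are defining members, except some that are not reported here, and the 3 genes most like each tested gene are named by Pearson's r among genes with an average log2 CPM of at least 1. Mice with the same replicate number were compared by the correlation of their deviations from the group means over tested genes. The numbers of the titles gave r above 0.1 in every pair for fasting in NT+/+ mice (0.165 to 0.499) and for the genotypes when fasted (0.124 to 0.453), but not for the other comparisons. The number that the file names carry, which differs from the title's for a few mice, did so in all 4 comparisons. The numbers were treated as pairing only in the fits with the number as a block. The fit without a block gave the other values, intervals and figures, which take no account of the pairing. Values with a block are given beside it where they change a call. Each library is from 1 mouse.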

Additional observations from a re-analysis of the deposited data

Results flagged for a closer look

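In 3 of the 32 sets formed by 8 genes and 4 groups, 1 mouse stood farther from the others than Dixon's 95% critical value allows, a test that chance passes in about 1 of 20 sets. Hopx was 73.7 CPM in replicate 1 of the fasted NT+/+ group, where the other mice lay between 43.6 and 48.6 CPM. Ly6a was 3.69 CPM in replicate 1 of the fed NT+/+ group, with 77 counts, where the others lay between 0.756 and 1.19 CPM. That library also stood apart from its group over the tested genes. Anxa1 was 0.264 CPM in replicate 3 of the fed NT+/+ group, which is 4 counts.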

How the results depend on the processing

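The alternatives were a stricter filter (at least 10 counts in every mouse), no filter, upper quartile normalization, DESeq2 and both replicate blocks. Others were a term for sex and leaving out each of the 19 mice. In another the mouse of disagreeing labels was moved to the fasted NT-/- group, against its Nts level. Leaving out the 2 shallow mice and leaving out the mice numbered 1 were chosen after seeing the data. Clu was called in each fasting comparison under all of them, and none reversed a called value. The genes called with fasting in NT+/+ mice, 1 of 7, were 2 with the title number as a replicate block and 3 with the file name number. In NT-/- mice the 2 called (Clu and Tert) were 1 with no filter or without the shallow mice, 3 with the stricter filter, upper quartile normalization or the title block (Lrig1 added), 4 with the file name block, still 2 without the mice numbered 1 (Clu and Lrig1), and 1 to 2 with 1 mouse left out. Averaged over genotypes the 2 called were 1 with no filter, without the shallow mice or with the other grouping, 5 with the title block (Clu and Hopx higher; Tert, Lrig1 and Ly6a lower), 4 with the file name block (the same genes without Tert), 3 with the stricter filter, upper quartile normalization or DESeq2 (Hopx added), 3 without the mice numbered 1 (Clu, Hopx and Lrig1), and 1 to 3 with 1 mouse left out.

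For NT-/- against NT+/+ mice the count over all tested genes, 1 in each diet, was 0 with the stricter filter and 0 with the other grouping in each diet, while DESeq2 called 3 in fed and 77 in fasted mice. It was 2 in fasted mice without the mice numbered 1, and 1 to 4 with 1 mouse left out. Averaged over diets the 4 called were 55 with DESeq2, 10 and 15 with the blocks by title and by file name, 1 with the sex term or the other grouping, 7 without the shallow mice, 2 without the mice numbered 1, and 1 to 6 with 1 mouse left out. None of the 7 tested genes was called for genotype under any alternative in which it was fitted (Ly6a was below the stricter filter). The causes were not tested. Lrig1 was called for fasting in NT-/- mice with the title block (adjusted p = 0.00838) as with that of the file names, and the blocks changed no other call of the 7 genes than those given. Ly6a and Anxa1, with at most 77 and 5 counts per mouse, are limited by depth. With no filter, Anxa1 could be fitted, with log2 fold changes for fasting of 0.89 in NT+/+ (edgeR, adjusted p = 0.394) and 0.77 in NT-/- mice (adjusted p = 0.49).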
